A study of Mus musculus with 47 samples.

Results

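The genes described here are 10 immediate early genes, chosen by symbol from the rows of a table of gene counts in the mouse hypothalamus: Fos, Fosb, Junb, Egr1, Egr2, Egr3, Arc, Nr4a1, Npas4 and Ier2. Rows for 8 of the 10 were among the 14221 genes of the table, and Fosb and Egr2 had none and were not analysed here. RNA was sequenced from hypothalamic tissue of 47 male ob/ob mice, which lack functional leptin, with a labelled age of 11 weeks and 1 library per mouse. On Day 1 after a single intracerebroventricular (icv) injection, 10 mice had received 3 µg of FGF1 and 4 had received vehicle. On Day 5 there were 9 FGF1-treated mice and 14 vehicle-treated mice, of which 7 were labelled non-diabetic and 7 diabetic. On Day 42 there were 5 FGF1-treated and 5 vehicle-treated mice. All vehicle-treated mice were labelled as pair-fed to the FGF1-treated mice, which the methods give for the first 5 days after injection, and pair-feeding after that is not stated. The vehicle-treated mice of Days 1 and 42 were labelled non-diabetic. These labels are not settled by the other sources. The protocol text counts a single vehicle group of 7 mice on Day 5, and the methods kept mice only if they were diabetic before injection, so that when and how the vehicle-treated mice were classed is not known here, and the groups are used as labelled. All groups share the ob/ob genotype, and no lean mice were in the series.

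Immediate early genes are transcribed within minutes of a stimulus, before any new protein has to be made, and their mRNAs are short-lived. Growth factors reach them through the ERK kinases and serum response factor, while calcium and cAMP reach them through CREB, and both routes can act on the same promoter. In the hypothalamus Fos is widely used as a mark of recently active neurons, although glial cells that meet a growth factor also transcribe it.

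The members fall into groups by function. Fos and Junb form AP-1, the leucine zipper dimer. Egr1 and Egr3 are zinc finger factors that bind GC-rich sites. Ier2 encodes a small nuclear protein that responds to growth factors. Arc is the only effector among them, a protein of the synapse that promotes removal of AMPA receptors. Nr4a1 is an orphan nuclear receptor, and Npas4 is a factor that is induced in neurons by calcium entry. In the GRCm38 annotation of GENCODE, matched by symbol, the measured genes other than Egr1 lie at chr12:85473890-85477273 (Fos, plus strand), chr8:84974484-84978718 (Junb, minus strand), chr14:70077203-70082614 (Egr3, plus strand), chr8:84661331-84662852 (Ier2, minus strand), chr15:74669083-74672570 (Arc, minus strand), chr15:101254269-101274795 (Nr4a1, plus strand) and chr19:4984355-4990316 (Npas4, minus strand). Exons of Junb overlap those of Prdx2 on the opposite strand, and its counts are uncertain to that extent.

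The promoters of Fos, Junb and Nr4a1 are shown because the first pair rose on Day 1 and Nr4a1 did not. Each line gives the 250 bases before the RefSeq start of the gene (GRCm38.p6), on the strand of the gene. Capitals mark TGACG, the core of the cAMP response element to which CREB binds, read as CGTCA on the other strand, and the EGR site GCGGGGGCG, read as CGCCCCCGC. The windows are chr12:85473640-85473889 for Fos, chr8:84978749-84978998 for Junb and chr15:101266596-101266845 for Nr4a1.
Fos: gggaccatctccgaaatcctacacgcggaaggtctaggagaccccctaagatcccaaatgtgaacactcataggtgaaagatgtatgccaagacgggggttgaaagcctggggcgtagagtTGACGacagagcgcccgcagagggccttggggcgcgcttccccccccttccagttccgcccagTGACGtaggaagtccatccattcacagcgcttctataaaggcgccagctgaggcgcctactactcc
Junb: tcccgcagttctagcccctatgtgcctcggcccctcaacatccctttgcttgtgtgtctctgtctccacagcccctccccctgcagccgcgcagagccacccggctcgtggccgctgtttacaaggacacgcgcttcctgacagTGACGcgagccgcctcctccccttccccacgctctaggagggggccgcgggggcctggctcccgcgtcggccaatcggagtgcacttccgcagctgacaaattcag
Nr4a1: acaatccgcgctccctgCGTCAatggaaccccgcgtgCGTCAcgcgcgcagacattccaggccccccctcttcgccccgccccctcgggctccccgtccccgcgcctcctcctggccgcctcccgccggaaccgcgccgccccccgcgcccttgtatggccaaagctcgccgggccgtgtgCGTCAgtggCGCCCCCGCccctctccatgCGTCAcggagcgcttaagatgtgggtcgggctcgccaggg

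The core of the cAMP response element occurs 2 times in the window of Fos, 1 time in that of Junb and 4 times in that of Nr4a1. It was found in 17.8% of the 32841 promoter windows of this length. The EGR site occurs in the window of Nr4a1 and in 2.57% of all windows. A CArG box, the site of serum response factor, was not matched in these windows and occurs in 1.47% of all, and the AP-1 site TGANTCA was also not matched and occurs in 6.75%. Both strands were searched, and no overlapping matches of different motifs were found in these 3 windows. A missing match says only that these letters are not in the 250 bases searched.

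Total counts per library ranged from 1243280 to 47082403 on Day 1, from 7579695 to 30009258 on Day 5 and from 19416026 to 43934003 on Day 42. FGF1 replicate 17 of Day 1 was the shallowest and held 3 counts of Junb and 1 of Ier2, so that its values for these genes are coarse. The deposited sample annotation gives 1 preparation code for each day, and preparation and day cannot be told apart. All 19 of the hypothalamic markers found in the table, of 21 listed, had counts in every library. The deposited table holds no rows with few counts. Its smallest row sum was 307, and most libraries of Day 5 had no gene at 0. That a marker was not at 0, here and below, is thus largely a trait of the table, and no result is read from it. Shares of all genes are shares of this table. FGF1 replicate 11 of Day 42 stood apart from the other 9 libraries of that day and is described with the Day 42 results, which are given with and without it. In whole tissue, fewer cells of a type and less RNA per cell cannot be told apart.

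The level of each gene is given as CPM, the count scaled to a fixed library size with TMM factors. A gene passed when its adjusted p from the quasi-likelihood test of edgeR was under 0.05 and its absolute log2 fold change (FC) was above 0.5, and ± after a log2 FC is its standard error. On Day 1, 6 of the 8 measured members rose after icv FGF1 and none fell, against 19.5% of all genes that passed in either direction and 11.5% that passed as higher. The median log2 FC of the 8 members was 2.03, and over all genes it was 0.01. The AP-1 genes Fos and Junb, the zinc finger genes Egr1 and Egr3, Ier2 and Arc were higher, by 2.62-fold to 7.15-fold. Nr4a1 and Npas4 did not pass, with log2 FC of -0.14 and -0.22. For Fos, Junb, Egr3 and Arc, 4 of the members, the lowest value with FGF1 exceeded the highest with vehicle, which was so for 7.56% of all genes.

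Fos, the AP-1 subunit, lay between 21.4 and 57.9 CPM (median 36.7) in the 10 FGF1-treated mice of Day 1. The vehicle-treated mice were at 16.7, 12.6, 17.4 and 10.7 CPM. The groups did not overlap, and the difference was 2.62-fold (log2 FC 1.39 ± 0.27, edgeR adjusted p = 3.31e-05). The two-sided exact permutation test gave p = 0.000999, the smallest it can give with 10 mice against 4.

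Junb, its partner in AP-1, lay between 2.44 and 12.5 CPM (median 3.59) with FGF1 and was at 1.57, 0.508, 0.605 and 1.75 CPM with vehicle. The groups did not overlap, and the FGF1-treated mice were spread unevenly. Replicates 18, 21 and 24 were at 12.5, 11.5 and 11.0 CPM, replicate 19 was at 6.56 CPM and the other 6 were at 3.86 CPM or below. The difference was 5.65-fold (log2 FC 2.50 ± 0.43, edgeR adjusted p = 6.53e-06).

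Egr1, a zinc finger factor of the EGR family, had the highest level per length of the members on Day 1, with a mean of 36.5 CPM per kb of exon in FGF1-treated mice against 15.9 for Fos, 6.38 for Arc, 3.93 for Nr4a1, 2.93 for Egr3, 2.61 for Junb, 2.16 for Npas4 and 1.83 for Ier2. It lay between 36.5 and 251 CPM (median 166) with FGF1 and was at 40.6, 25, 31.5 and 29.5 CPM with vehicle. In 9 of the 10 FGF1-treated mice Egr1 was at 147 CPM or higher, while replicate 22 lay within the vehicle range at 36.5 CPM. The difference was 5.18-fold with that mouse included (log2 FC 2.37 ± 0.33, edgeR adjusted p = 9.09e-08) and had a log2 FC of 2.49 ± 0.29 without it. Egr3, of the same family, lay between 4.42 and 18.4 CPM (median 12.5) with FGF1 and was at 1.51, 1.67, 2.07 and 2.05 CPM with vehicle. The groups did not overlap, and the 7.15-fold difference was the largest of the members by fold (log2 FC 2.84 ± 0.52, edgeR adjusted p = 1.37e-05).

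Ier2, the growth factor-induced nuclear protein, lay between 0.815 and 5.46 CPM (median 2.28) with FGF1 and was at 0.769, 0.226, 0.303 and 0.875 CPM with vehicle. The groups overlapped only through the shallow replicate 17, in which the lowest FGF1 value rests on 1 count. The difference was 5.41-fold (log2 FC 2.44 ± 0.36, edgeR adjusted p = 2.73e-07). With quantile-normalized values in limma voom its log2 FC was 1.82. Arc, the synaptic effector, lay between 9.17 and 48.1 CPM (median 17.2) with FGF1 and was at 4.59, 3.84, 7.07 and 8.67 CPM with vehicle. The groups did not overlap, and the 3.24-fold difference (log2 FC 1.70 ± 0.35, edgeR adjusted p = 8.46e-05) was nearest to that of Fos.

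Nr4a1 and Npas4 set themselves apart from the other 6. Nr4a1, the orphan nuclear receptor, lay between 10.7 and 23.7 CPM (median 12.7) with FGF1 and was at 16.4, 14.5, 13.5 and 17.2 CPM with vehicle. Only replicate 18 was above the vehicle-treated mice, and 6 of the 10 FGF1-treated mice were below all of them. The 95% interval of its log2 FC ran from -0.61 to 0.33 (edgeR adjusted p = 0.651), which leaves out the fold changes of the 6 genes that rose. Npas4, the calcium-induced neuronal factor, lay between 5.01 and 10.9 CPM (median 9.19) with FGF1 and was at 13.1, 8.02, 10.3 and 10.6 CPM with vehicle. The groups overlapped, and the 95% interval of its log2 FC ran from -0.61 to 0.17 (edgeR adjusted p = 0.371).

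**Figure D1:**
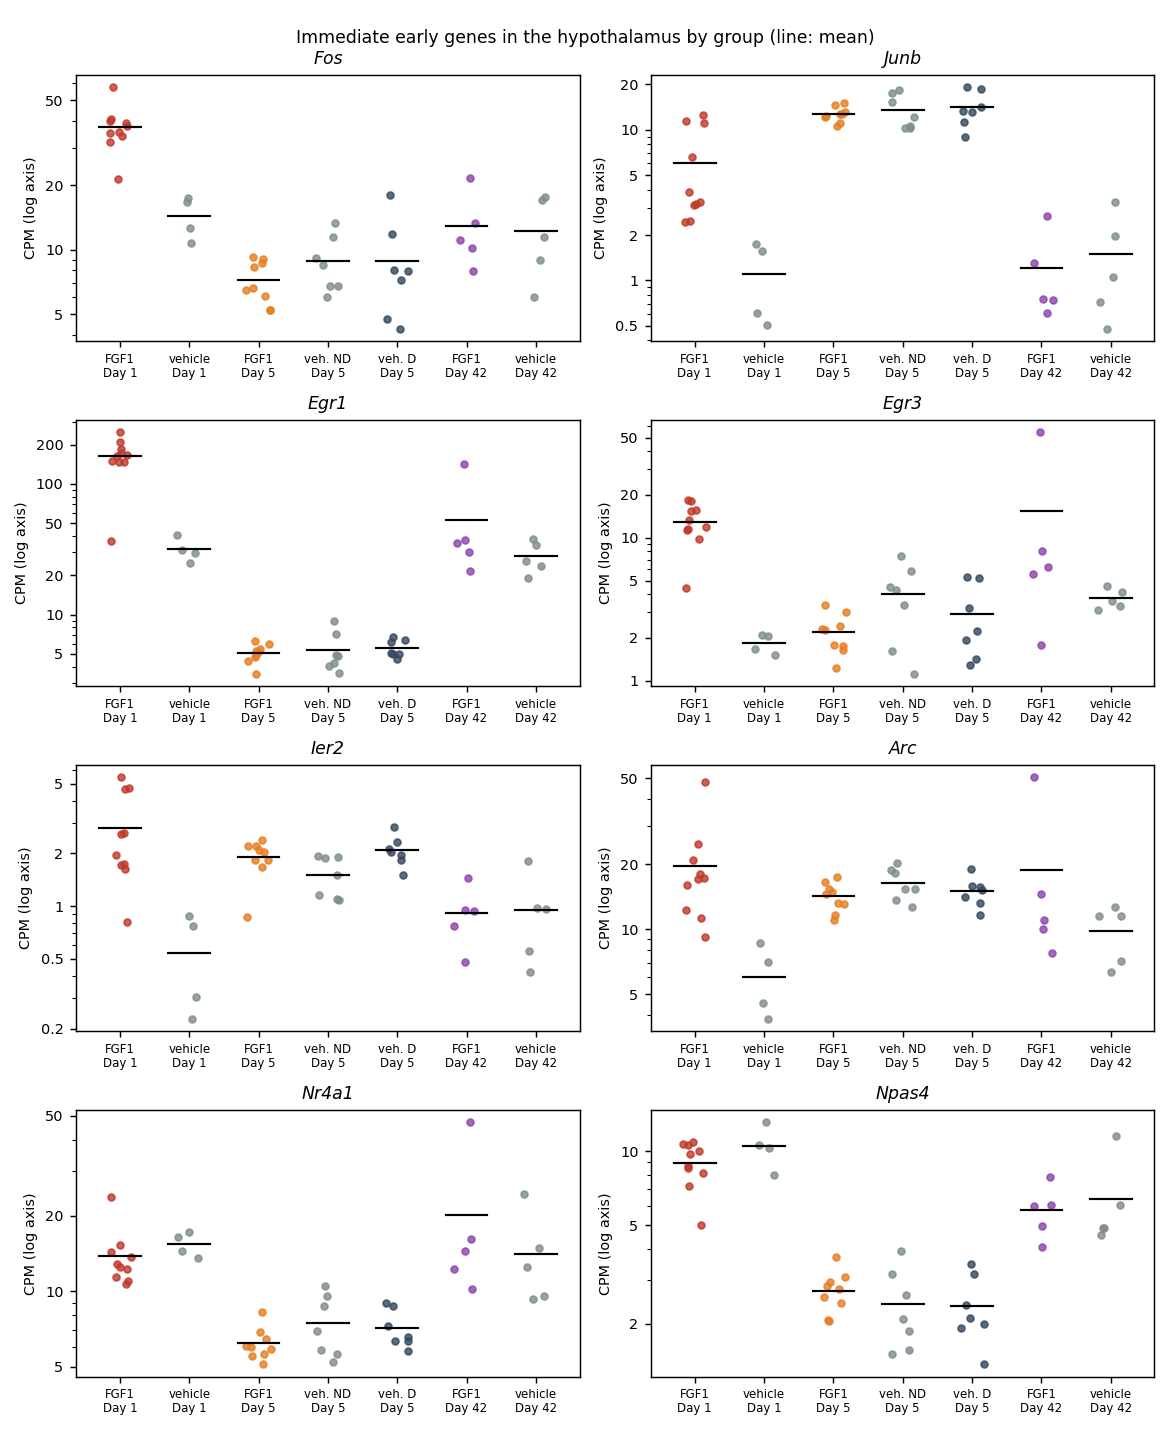
CPM (log axis) of the 8 measured members in each of the 47 libraries by group, with 1 point per mouse and a line at the group mean (veh. ND and veh. D are the vehicle groups labelled non-diabetic and diabetic). Fos, Junb, Egr3 and Arc of all FGF1-treated mice of Day 1 sit above all 4 vehicle-treated mice, Egr1 does so in 9 of 10, and on Day 42 a single FGF1-treated mouse lies far above the rest in Egr1 (142 CPM), Egr3 (54.9 CPM), Arc (50.6 CPM) and Nr4a1 (47.2 CPM).

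The rise on Day 1 differed in size between mice. The position of each mouse was expressed as a percentage of the way from the vehicle mean to the mean of the other FGF1-treated mice, on the log2(CPM + 0.5) scale, so that it is not a share of the difference in CPM. The median over the 6 genes that rose was between 82.1% and 132% in 8 of the 10 mice. In replicate 18 it was 159%, with Arc at 216%, Junb at 180% and Egr1 at 138%. In replicate 22 it was 41.6%, with Egr1 at 9.08%, Arc at 38.5%, Fos at 41.3%, Egr3 at 41.8%, Ier2 at 66.7% and Junb at 69.8%.

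ERK feedback genes, which encode phosphatases and Sprouty or Spred proteins that restrain ERK signalling and factors that ERK induces, gave a like picture in replicate 22. The median position over the 11 of them that passed was 46.2%. Dusp6, an ERK phosphatase, was at 24.3 CPM in this mouse, against 43.2 to 62.5 CPM in the other 9 and 12.5 to 13.8 CPM with vehicle. Replicate 22 was the lowest of the FGF1-treated mice in 9 of the 13 ERK feedback genes. Over the 1581 other genes that passed as higher, by contrast, its median position was 95.8%. Its Gfap, an astrocyte filament, was at 2180 CPM, above the 1440 to 2060 CPM of the other 9 FGF1-treated mice and the 227 to 286 CPM of vehicle-treated mice. Its summed astrocyte markers (5920 CPM) and tanycyte and ependymal markers (1030 CPM) were also the highest of all mice of Day 1. The astrocyte list includes Gfap and the other includes Vim, which was at 698 CPM in this mouse and 427 to 677 CPM in the other 9. Its oligodendrocyte, oligodendrocyte precursor and choroid plexus markers were the highest of the FGF1-treated mice too, which for these lists is toward the vehicle levels. They summed to 4060 CPM (others 2240 to 3400, vehicle 3570 to 5220), 134 CPM (others at most 106, vehicle 132 to 156) and 36.5 CPM (others at most 30.6, vehicle 42.4 to 55.1), so that the first pair lay within the vehicle range. The part of this makeup in its low Egr1 was not tested. These positions are descriptions with no test, since the genes were selected on the same mice.

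**Figure D2:**
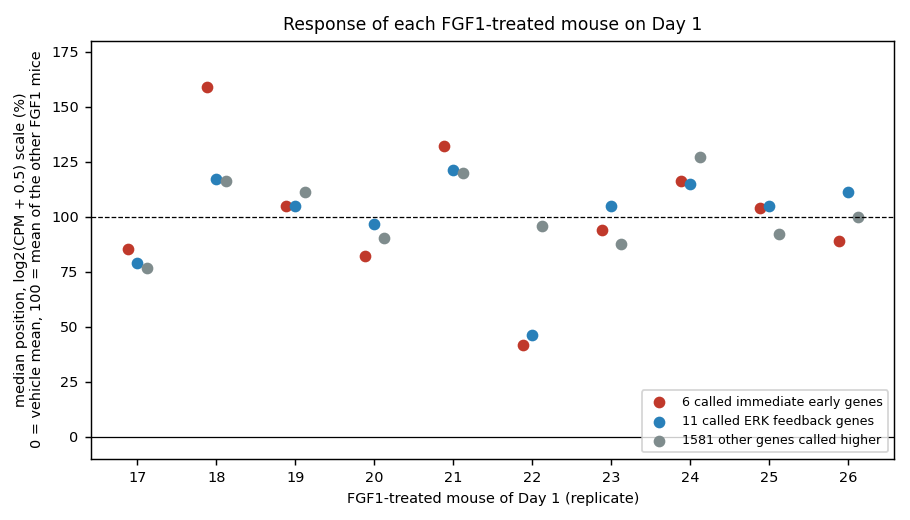
Median position of each FGF1-treated mouse of Day 1, as a percentage of the way from the vehicle mean (0%) to the mean of the other FGF1-treated mice (100%) on the log2(CPM + 0.5) scale, over the 6 immediate early genes that rose, the 11 ERK feedback genes that passed and the 1581 other genes that passed as higher. Replicate 22 sits at 41.6% and 46.2% for the first pair of sets and at 95.8% for the third.

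Marker levels also moved with treatment on Day 1. The summed CPM of 8 tanycyte and ependymal markers ranged from 583 to 1030 with FGF1 and from 184 to 255 with vehicle. Vim, which is in this list and which the paper also names as a marker of reactive astrocytes, carried much of that rise. It was at 427 to 698 CPM with FGF1 and 44.7 to 70.3 CPM with vehicle. The summed CPM of 8 microglial markers ranged from 193 to 299 with FGF1 and from 133 to 179 with vehicle. The 3 pituitary markers in the table, of 7 listed, were Pomc, Cga and Tshb. They summed to 19.7 to 50 CPM with FGF1 and 12.5 to 15.2 CPM with vehicle. Pomc is also in the hypothalamic list, so that this sum does not tell pituitary tissue from hypothalamic Pomc. Lower with FGF1 were the 3 choroid plexus markers in the table, of 7 listed, at 21.4 to 36.5 CPM against 42.4 to 55.1 CPM, and the 6 general neuronal markers, at 3220 to 3920 CPM against 3960 to 4610 CPM. In these lists the groups did not overlap. The sums overlapped for 8 astrocyte markers, at 4800 to 5920 CPM against 4460 to 5150 CPM, for 6 oligodendrocyte markers, at 2240 to 4060 CPM (median 2490) against 3570 to 5220 CPM (median 4660), and for 4 oligodendrocyte precursor markers, at 83.3 to 134 CPM against 132 to 156 CPM. Gfap, in the astrocyte list, was at 1440 to 2180 CPM with FGF1 and 227 to 286 CPM with vehicle. It rose by more than the astrocyte sum, so that the other astrocyte markers together were lower. Overlap was also seen for the 19 hypothalamic markers, at 1110 to 1600 CPM (median 1480) against 1550 to 2000 CPM (median 1800), for the 8 striatal markers, at 243 to 274 CPM (median 255) against 269 to 300 CPM (median 288), and for 6 meningeal markers, at 55.4 to 344 CPM (median 179) against 88.9 to 163 CPM (median 111). None of these markers was at 0 in any library of Day 1. Their part in the rise of the members was not tested.

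Base composition moved with several members. Transcripts of Junb and Ier2 hold 62.6% and 60.9% GC, above the 95th percentile of 59.8% over the 14158 genes with a value, while those of Fos and Egr3 hold 51.9% and 51.3%. The mean log2 level of the 705 most GC-rich genes of each library ranged from 3.41 to 4.18 in FGF1-treated mice of Day 1 and from 3.19 to 3.94 in vehicle-treated mice. Over the 14 libraries of Day 1, Pearson's r of the deviations of this level and of the member from their group means was 0.78 for Junb, 0.74 for Npas4, 0.68 for Ier2, 0.67 for Nr4a1 and 0.56 for Arc, and 0.15 for Fos, 0.05 for Egr1 and -0.01 for Egr3. These libraries share a preparation code and differ in depth, and the r are descriptions with no test. With that level as a covariate, log2 FC on Day 1 were 1.95 ± 0.27 for Junb, 2.11 ± 0.28 for Ier2, 1.32 ± 0.30 for Arc, 2.23 ± 0.31 for Egr1, 2.69 ± 0.51 for Egr3 and 1.28 ± 0.26 for Fos, and all 6 passed. In the same fit Npas4 had a log2 FC of -0.44 ± 0.16 (edgeR adjusted p = 0.0218), under the fold threshold, and Nr4a1 one of -0.39 ± 0.21 (edgeR adjusted p = 0.116).

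The other genes of this response were counted from lists. Of 38 further rapid immediate early genes, 33 were in the table, and on Day 1 18 passed as higher and 1 as lower, with a median log2 FC of 0.78. The AP-1 gene Fosl1 was at 10.3 ± 4.65 CPM (SD, n = 10) with FGF1 and 0.449 ± 0.235 CPM (SD, n = 4) with vehicle (log2 FC 4.54 ± 0.36, edgeR adjusted p = 1.65e-14). Trib1, a pseudokinase of the Tribbles family, and Myc followed, with log2 FC of 2.90 ± 0.19 and 2.18 ± 0.20. The gene that passed as lower was Nr4a3 (log2 FC -0.79 ± 0.23, edgeR adjusted p = 0.00379), of the same receptor family as Nr4a1, and the remaining relative Nr4a2 had a log2 FC of -0.51 ± 0.23 (edgeR adjusted p = 0.0720). Nr4a3 and Nr4a2 were named after their values were seen. None of the 3 NR4A receptor genes passed as higher.

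Among 16 AP-1 and EGR partners in the table, 5 passed as higher and none as lower. They included Jun, the main dimer partner of Fos, at 76.6 ± 14.3 CPM (SD, n = 10) against 19.7 ± 3.73 CPM (SD, n = 4) (log2 FC 1.96 ± 0.13), and Nab2, a corepressor that EGR factors induce and that binds them (log2 FC 1.46 ± 0.19). Of the 5 partners, Fosl1, Fosl2 and Jun also stand in the rapid list and were counted there, as does Jund, which did not pass. Of 13 ERK feedback genes, 11 passed as higher and none as lower (median log2 FC 1.05), led by the phosphatase genes Dusp5 (3.31 ± 0.29) and Dusp6 (1.97 ± 0.19) and by Spry2 (1.85 ± 0.12), which is also counted among the delayed genes.

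Delayed activity-regulated neuronal genes were mixed. The table held 19 of them, and 8 passed as higher and 2 as lower, with a median log2 FC of 0.42. Ptgs2, the inducible prostaglandin synthase, was at 14.3 ± 11.3 CPM (SD, n = 10) against 0.623 ± 0.299 CPM (SD, n = 4) (log2 FC 4.56 ± 0.58, edgeR adjusted p = 1.03e-08). Baz1a and Nptx2, a pentraxin of excitatory synapses, had log2 FC of 2.08 ± 0.20 and 1.96 ± 0.22. Of 30 upstream regulators, kinases and factors that act on the promoters of immediate early genes, 6 passed as higher and none as lower, and their median log2 FC was 0.05. In either direction that share is close to the 19.5% of all genes that passed, and no result is read from it. The 3 with the largest log2 FC were Elk3 (0.96 ± 0.13), Srf (0.70 ± 0.17), which encodes serum response factor, and Rps6ka3 (0.69 ± 0.13), an RSK kinase.

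**Figure D3:**
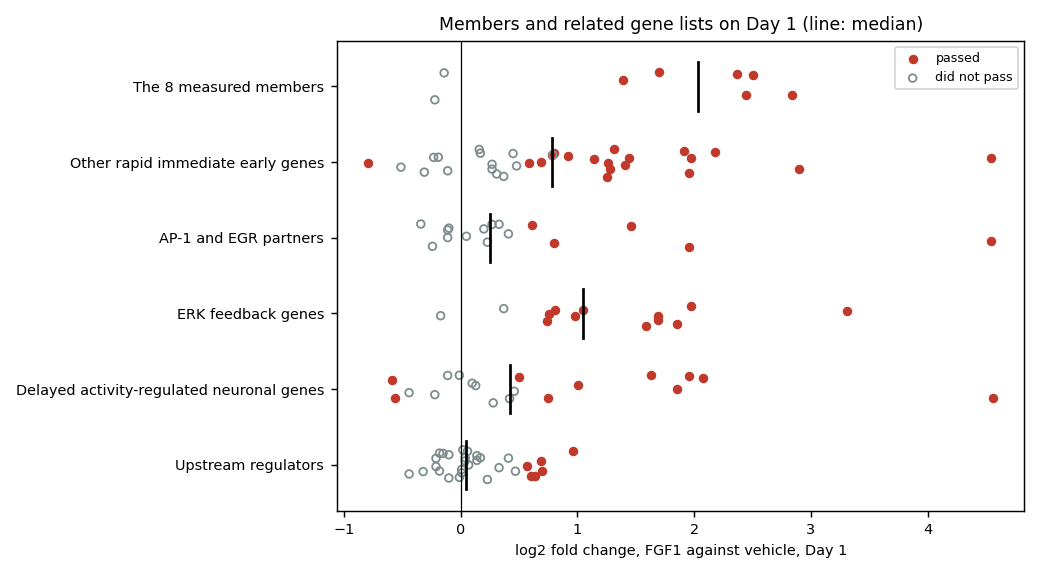
Log2 fold change on Day 1, FGF1 against vehicle, for the 8 measured members and the genes of 5 related lists, with filled points for genes that passed, open points for those that did not and a line at the median of each list. The members have a median of 2.03, the ERK feedback genes of 1.05 and the upstream regulators of 0.05.

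On Day 5 no member passed against the non-diabetic vehicle group, where 1.54% of all genes passed, and none against the diabetic vehicle group, where 2.85% passed. By edgeR no member had an unadjusted p under 0.05 in these comparisons, and DESeq2 and both limma voom fits also called none. The median log2 FC of the 8 members was -0.14 against each vehicle group, and -0.01 over all genes. Both comparisons use the same 9 FGF1-treated mice.

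Levels on Day 5 overlapped between the 3 groups for every member. Fos lay between 5.22 and 9.22 CPM (median 6.62) with FGF1, between 6.03 and 13.4 CPM (median 8.45) with non-diabetic vehicle and between 4.26 and 18 CPM (median 7.97) with diabetic vehicle. Egr1 lay between 3.50 and 6.25 CPM (median 5.19), between 3.59 and 8.94 CPM (median 4.83) and between 4.59 and 6.72 CPM (median 5.12). In these libraries the 95% interval of log2 FC against non-diabetic vehicle ran from -0.80 to 0.18 for Fos and from -0.79 to 0.62 for Egr1, so that a rise of the size seen on Day 1 lay outside it for both genes.

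Egr3 had the largest difference of the members on Day 5. It lay between 1.22 and 3.36 CPM (median 2.25) with FGF1, between 1.11 and 7.49 CPM (median 4.30) with non-diabetic vehicle and between 1.28 and 5.32 CPM (median 2.24) with diabetic vehicle. All 9 FGF1-treated mice were below the median of the non-diabetic group, but within its range (log2 FC -0.87 ± 0.47, edgeR adjusted p = 0.364). Against diabetic vehicle the log2 FC was -0.42 ± 0.48 (edgeR adjusted p = 0.687). Striatal markers moved with Egr3 on Day 5. The summed CPM of the 8 striatal markers lay between 227 and 437 (median 247) with FGF1, between 229 and 617 (median 379) with non-diabetic vehicle and between 222 and 485 (median 294) with diabetic vehicle, and none of the 8 was at 0. The 4 mice with the highest Egr3 had the 4 highest sums of the day. They were a pair of non-diabetic mice, with Egr3 at 7.49 and 5.84 CPM and sums of 591 and 617 CPM, and a pair of diabetic mice, with Egr3 at 5.32 and 5.22 CPM and sums of 485 and 482 CPM. The highest Egr3 with FGF1, 3.36 CPM, was in the mouse with the highest sum of its group, 437 CPM. The part of these markers in the Egr3 levels was not tested.

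Junb lay between 10.5 and 15.1 CPM (median 12.7) with FGF1, between 10.2 and 18.4 CPM (median 12.2) with non-diabetic vehicle and between 8.97 and 19.3 CPM (median 13.3) with diabetic vehicle. Its FGF1-treated mice thus sat inside the spread of both vehicle groups. Arc lay between 11.1 and 17.4 CPM (median 14.6), between 12.7 and 20.2 CPM (median 15.4) and between 11.7 and 19 CPM (median 15.2). Nr4a1 lay between 5.1 and 8.25 CPM (median 6), between 5.23 and 10.5 CPM (median 6.96) and between 5.76 and 9 CPM (median 6.54). Npas4 lay between 2.06 and 3.73 CPM (median 2.76), between 1.51 and 3.96 CPM (median 2.09) and between 1.37 and 3.49 CPM (median 2.12). Ier2 lay between 0.868 and 2.38 CPM (median 2.03) with FGF1, and 5 of the 9 FGF1-treated mice were above all non-diabetic mice, which lay between 1.08 and 1.92 CPM (log2 FC 0.35 ± 0.33, edgeR adjusted p = 0.689). In these 4 genes, too, no group stood clear of the others, and the members other than Egr3 had log2 FC between -0.31 and 0.35 against the non-diabetic group and between -0.31 and 0.22 against the diabetic group.

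Between the vehicle groups of Day 5 no member passed and none had an unadjusted p under 0.05 by edgeR, and 0% of all genes passed, of which 193 had an unadjusted p under 0.05. DESeq2 and limma voom also called 0 genes, and no gene of the related lists passed by edgeR. Ier2 lay between 1.5 and 2.84 CPM (median 2.03) in the diabetic group and between 1.08 and 1.92 CPM (median 1.51) in the non-diabetic group. The ranges overlapped, although 5 of the 7 diabetic mice were above all non-diabetic mice (log2 FC 0.47 ± 0.34, edgeR adjusted p = 1, exact permutation p = 0.0216 before correction over the members).

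Few genes of the related lists passed on Day 5. Against non-diabetic vehicle the rapid gene Zfp36l1, which encodes an mRNA decay factor, was higher (log2 FC 0.56 ± 0.13, edgeR adjusted p = 0.00512). Against diabetic vehicle Sgk1 (-0.76 ± 0.23) and Per1 (-0.66 ± 0.17), both targets of the glucocorticoid receptor, were lower, and the delayed gene Baz1a (0.57 ± 0.18) was higher. No ERK feedback gene, upstream regulator or AP-1 and EGR partner passed against either vehicle group.

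The FGF1 effect on Day 5 against non-diabetic vehicle was smaller than that on Day 1 for the same 6 members, and the test of the difference passed for each of them. Over all genes 15.8% passed this test in either direction and 8.52% passed with a lower log2 FC on Day 5. The differences in log2 FC, Day 5 minus Day 1, were -3.71 ± 0.68 for Egr3, -2.58 ± 0.52 for Junb, -2.46 ± 0.48 for Egr1, -2.09 ± 0.48 for Ier2, -1.89 ± 0.44 for Arc and -1.70 ± 0.36 for Fos. Their edgeR adjusted p ranged from 4.21e-05 for Egr3 to 0.000932 for Arc. With quantile-normalized values in limma voom the difference for Ier2 was -1.05 ± 0.69 and did not pass (adjusted p = 0.288). Nr4a1 (-0.13 ± 0.34) and Npas4 (0.42 ± 0.30) did not pass. With the GC-rich level as a covariate, however, Npas4 passed with a positive difference, and that of Nr4a1 turned positive without passing. In the same test the log2 FC was lower on Day 5 than on Day 1 for 16 of the 33 other rapid genes, 11 of the 13 ERK feedback genes, 9 of the 19 delayed genes, 7 of the 30 upstream regulators and 5 of the 16 AP-1 and EGR partners. The signed difference was positive for 1 delayed gene, Pcsk1 (0.58 ± 0.14), a prohormone convertase named after its value was seen, which passed as lower on Day 1 (log2 FC -0.56 ± 0.10) and had a log2 FC of 0.02 ± 0.09 on Day 5. Those furthest apart were Fosl1 (-4.52 ± 0.43), Ptgs2 (-3.72 ± 0.76) and Dusp5 (-3.63 ± 0.38).

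**Figure D4:**
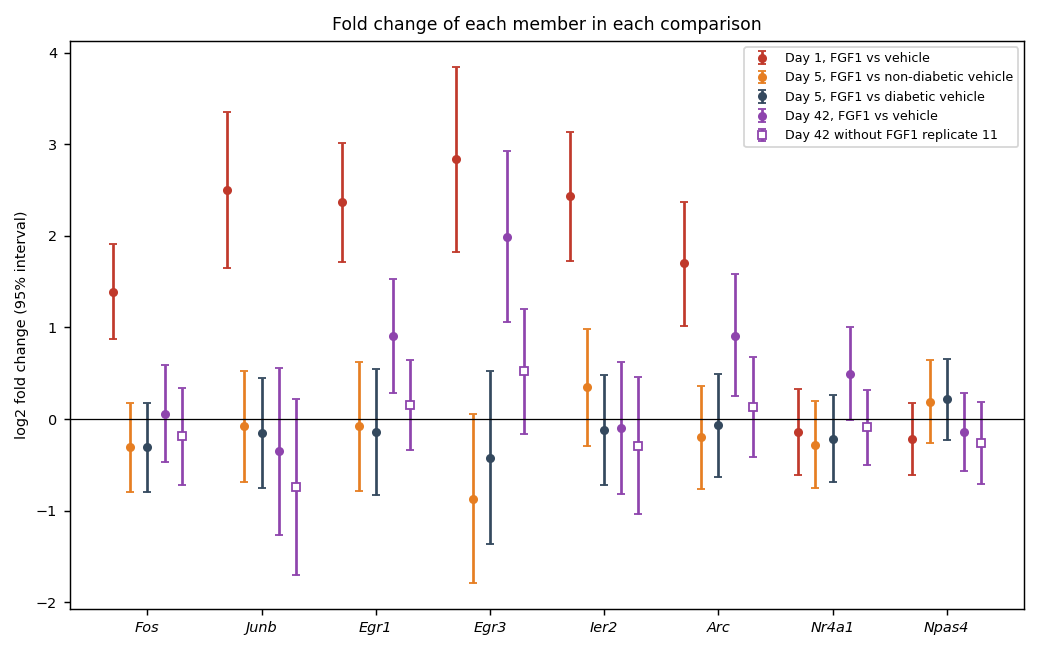
Log2 fold change of the 8 measured members, FGF1 against vehicle, on Day 1, on Day 5 against each vehicle group, and on Day 42 with all 10 libraries (filled) and without FGF1 replicate 11 (open squares), with bars for the 95% interval. On Day 1 the intervals of 6 members lie above 0, and on Day 42 the value of Egr3 goes from 1.99 to 0.52 without that replicate.

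On Day 42 no member passed by edgeR, and 0% of all genes passed. Unadjusted p were under 0.05 for 3 members and for 776 of all genes, and DESeq2 and both limma voom fits called 0 genes. The 3 members were Egr3 (log2 FC 1.99 ± 0.48, edgeR adjusted p = 0.270), Egr1 (0.91 ± 0.31, adjusted p = 0.505) and Arc (0.91 ± 0.34, adjusted p = 0.592). The exact permutation test gave p = 0.222 for Egr3, 0.286 for Egr1 and 0.286 for Arc. Nr4a1 had a log2 FC of 0.49 ± 0.26, Fos of 0.06 ± 0.27, Ier2 of -0.10 ± 0.37, Npas4 of -0.14 ± 0.22 and Junb of -0.35 ± 0.47.

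These values turned on FGF1 replicate 11. Egr3 was at 1.76, 6.20, 8.04 and 5.60 CPM in the other FGF1-treated mice, at 54.9 CPM in replicate 11 and at 3.34, 3.61, 4.16, 3.13 and 4.57 CPM with vehicle. Of the other 4 FGF1-treated mice 3 were above all vehicle-treated mice and replicate 7 was below all of them. Without replicate 11 the log2 FC of Egr3 was 0.52 ± 0.35 (edgeR adjusted p = 1). Without replicate 7 instead it was 2.29 ± 0.44 and Egr3 passed (edgeR adjusted p = 0.0148).

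Egr1 was at 21.5, 30.4, 35.1 and 37.2 CPM in the other FGF1-treated mice, at 142 CPM in replicate 11 and at 23.6, 25.7, 18.9, 34.2 and 37.8 CPM with vehicle. Arc was at 7.80, 14.6, 11.0 and 10.0 CPM, at 50.6 CPM in replicate 11 and at 6.35, 11.5, 7.14, 11.5 and 12.7 CPM with vehicle. Apart from replicate 11 the arms overlapped in both genes, and without it their log2 FC were 0.15 ± 0.25 and 0.13 ± 0.28. Nr4a1 was at 10.2, 12.3, 14.4 and 16.1 CPM, at 47.2 CPM in replicate 11 and between 9.27 and 24.3 CPM with vehicle, and its log2 FC without that mouse was -0.09 ± 0.21.

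Fos was at 7.98, 10.2, 11.1 and 13.4 CPM with FGF1, at 21.6 CPM in replicate 11 and at 8.94, 11.5, 6.04, 17.1 and 17.6 CPM with vehicle, and its log2 FC turned to -0.19 ± 0.27 without that mouse. Junb, Npas4 and Ier2 were also highest in replicate 11 among the FGF1-treated mice, at 2.67, 7.89 and 1.44 CPM, but below the highest vehicle-treated mouse, replicate 16, at 3.30, 11.5 and 1.81 CPM. Replicate 16 was the highest of the vehicle-treated mice for all 8 members. It also had the highest mean log2 level of GC-rich genes of Day 42, at 4.06, against 3.23 to 3.75 in the other 9 libraries, and the part of base composition in its levels was not tested. Without it the log2 FC of Junb, Npas4 and Ier2 were 0.20 ± 0.49, 0.19 ± 0.21 and 0.29 ± 0.38, and none passed.

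Markers of cortex and hippocampus, of striatum and of choroid plexus stood out in replicate 11, while those of thalamus did not. The 8 markers of cortical and hippocampal excitatory neurons in the table, of 11 listed, summed to 1290 CPM in it and to between 233 and 414 CPM in the other 9 libraries of Day 42. Slc17a7, the vesicular glutamate transporter of cortex and hippocampus, was at 508 CPM in replicate 11 and between 11.2 and 88.6 CPM in the others. Camkv, of the same list, stood out least, at 294 CPM against 152 to 245 CPM. The 8 striatal markers summed to 662 CPM against at most 443 CPM, and the 3 choroid plexus markers in the table, of 7 listed, to 203 CPM against at most 41.2 CPM. The 8 thalamic markers summed to 1090 CPM in replicate 11. In the other 9 libraries that sum varied widely, from 514 CPM in FGF1 replicate 9 to 2360 CPM in vehicle replicate 15. The 19 hypothalamic markers gave the lowest sum of the day, at 619 CPM. None of these markers was at 0 in any library of Day 42. Vehicle replicate 16 had the next highest cortical sum, at 414 CPM. The part of these markers in the levels of the members was not tested.

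**Figure D5:**
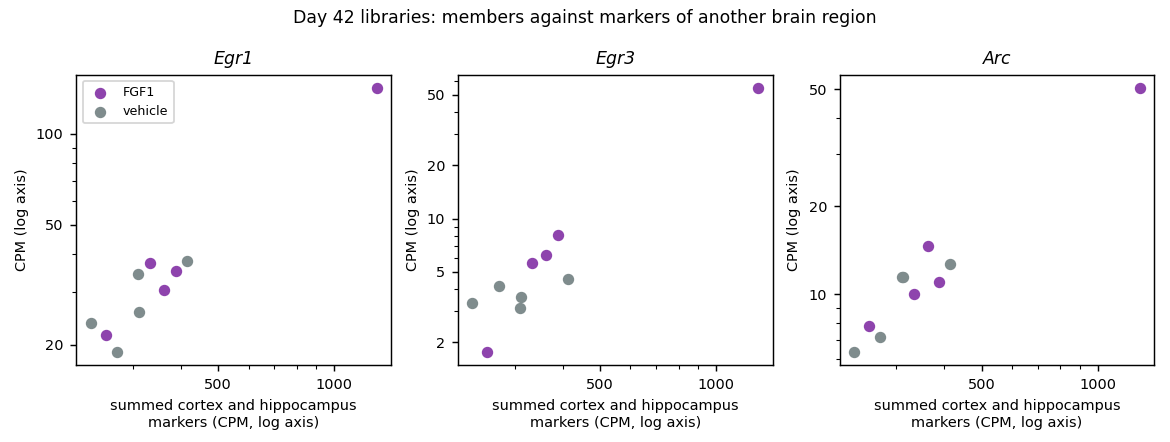
CPM of Egr1, Egr3 and Arc against the summed CPM of 8 markers of cortical and hippocampal excitatory neurons (both axes log) in the 5 FGF1-treated and 5 vehicle-treated mice of Day 42. Replicate 11 sits alone at 1290 CPM of markers, and the other 9 libraries lie between 233 and 414 CPM.

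None of the 33 other rapid immediate early genes, 19 delayed genes, 30 upstream regulators, 13 ERK feedback genes or 16 AP-1 and EGR partners passed on Day 42. In the test of the FGF1 effect on Day 42 minus that on Day 5, 1 member passed, Egr3, with 2.86 ± 0.67 (edgeR adjusted p = 0.0185), against 0.717% of all genes. Of the related lists only the rapid gene Zfp36l1 passed this test (-0.80 ± 0.18). Without FGF1 replicate 11 of Day 42 the difference for Egr3 was 1.38 ± 0.48 and did not pass (edgeR adjusted p = 0.287). With all libraries kept, both limma voom fits called no member in this difference.

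Levels in vehicle-treated mice differed between days by gene. With the pair-fed non-diabetic groups set side by side, Junb had a mean of 1.11 ± 0.642 CPM (SD, n = 4) on Day 1, 13.5 ± 3.49 CPM (SD, n = 7) on Day 5 and 1.51 ± 1.15 CPM (SD, n = 5) on Day 42. Egr1 went the other way, with 31.7 ± 6.57 CPM (SD, n = 4), 5.39 ± 1.94 CPM (SD, n = 7) and 28 ± 7.78 CPM (SD, n = 5). Npas4 followed Egr1, with 10.5 ± 2.08 CPM (SD, n = 4) on Day 1, 2.40 ± 0.908 CPM (SD, n = 7) on Day 5 and 6.37 ± 2.91 CPM (SD, n = 5) on Day 42. For these 3 genes the Day 5 libraries overlapped those of neither other day.

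Arc, Nr4a1 and Ier2 were apart between Days 1 and 5 but overlapped between Days 5 and 42, Egr3 was apart only between Days 1 and 42, and Fos overlapped throughout. The mean log2 level of GC-rich genes was between 4.08 and 4.25 in all 23 libraries of Day 5 and between 3.19 and 4.18 in the 24 libraries of the other days. As preparation and day cannot be told apart, no test was made between days on these levels, and the FGF1 effects were compared only as differences within each day.

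In the order of group means, Fos, Egr1, Arc and Ier2 were highest in FGF1-treated mice of Day 1. For Fos that group was apart from its neighbour, vehicle on Day 1, and no other neighbours in its order were apart. Egr1 of FGF1-treated mice on Day 1 overlapped the next group, FGF1 on Day 42, through replicate 22 of Day 1 alone. Egr3 and Nr4a1 had their highest mean in FGF1-treated mice of Day 42, with replicate 11 included. For Egr1 and Npas4 the only neighbours in the order that were apart were the lowest group of Days 1 and 42 and the highest of Day 5, and for Nr4a1 they were FGF1 on Day 1 and non-diabetic vehicle on Day 5. Junb, Egr3, Arc and Ier2 had no neighbours apart.

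Members also varied together between mice of a group. Over the 47 libraries, Pearson's r of the deviations of log2(CPM + 0.5) from the group mean ranged from 0.27 (Egr1 with Npas4) to 0.76 (Egr1 with Arc) over the 28 pairs of members, with a median of 0.58. Among 1423 genes taken at every 10th row of the table the median over pairs was 0 and 6.36% of pairs were above 0.58. Without FGF1 replicate 11 of Day 42 the range over the members was 0.18 to 0.73 and the median 0.52. The libraries differ in depth and base composition, and these values are descriptions with no test.

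The 10 genes outside the members whose deviations were most like the mean of the members included Fbxl16 (r = 0.83), R3hdm4, Nab2, Ppp1ca, Rgs14, Agap2, Wsb2, Synpo and Plxnd1 (r = 0.79). Without replicate 11, over 46 libraries, Nab2 was first (r = 0.77), and Ppp1ca, Wsb2, Stk40, Sik1, Plk3, Fbxl16, Usp36, R3hdm4 and Vgf followed. For Fos alone the 5 genes were Dusp6 (r = 0.69), Dusp1 (0.68), Ubqln4 (0.65), Nr4a3 (0.64) and Siah2 (0.62). Without replicate 11 Fam222b (0.66) took the place of Siah2, and Dusp6, Dusp1, Nr4a3 and Ubqln4 were again among the 5.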

How the data were processed

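Libraries were made from hypothalamic mRNA with an Illumina stranded kit, and 1 mouse gave 1 library. The authors aligned the reads with STAR to the mouse genome and deposited raw counts per gene, with no normalization, for 14221 genes. The counting program was not given in the sources used here, and the build they name is a human one. Positions given here are from GENCODE M21 (GRCm38), in which 14158 genes were matched to 1 gene by symbol.

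From the deposited counts, TMM factors were computed, and the 7 groups were given a mean each in a single fit over all 47 libraries with edgeR 4.0.16 under R 4.3.3, and contrasts were tested by quasi-likelihood with Benjamini-Hochberg adjustment over all genes. The low-count filter removed 0 genes. For single members, exact permutation tests over mice (two-sided) used log2(CPM + 0.5). Alternatives were DESeq2 1.42.0, limma 3.58.1, other filters and left-out libraries. On simulated counts for the Day 1 comparison, 96% of 100 genes changed by 1 on the log2 scale were recovered, of 14221 genes run. Each simulated gene had 1 baseline, its mean over all 47 libraries. Differences between days, in base composition and from outlying mice were not simulated, so that this share does not describe the members themselves.

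The members, the lists and the rule for named genes were chosen with earlier results of these data known. All members are named, with, per list and comparison, at most the 3 genes of largest change that passed, apart from genes that stand in both of a pair of lists and from Nr4a2, Nr4a3 and Pcsk1, named after their values were seen. Promoters of 6 of the 10 members were in the RefSeq table. Replicates are separate mice. A gene among those most like the members is not reported here.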

Additional observations from a re-analysis of the deposited data

Results flagged for a closer look

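Of 56 combinations of member and group with 4 to 10 mice, 10 held a mouse far from the others by Dixon's criterion at 95%, applied to unlogged CPM. About 1 in 20 would by chance if values were normal and the combinations separate. The members vary together and the same mice recur, so that no excess over chance is read from this count. Of the 10, 8 were the highest mouse of the group. On Day 1, FGF1 replicate 18 stood above the other FGF1-treated mice in Fos (57.9 CPM, next 40.7 CPM), Arc (48.1 CPM, next 24.9 CPM) and Nr4a1 (23.7 CPM, next 15.2 CPM), and FGF1 replicate 22 stood below them in Egr1 (36.5 CPM, next 147 CPM). On Day 42, FGF1 replicate 11 stood above the others in Egr1 (142 CPM, next 37.2 CPM), Egr3 (54.9 CPM, next 8.04 CPM), Arc (50.6 CPM, next 14.6 CPM) and Nr4a1 (47.2 CPM, next 16.1 CPM). Vehicle replicate 16 of Day 42 stood above its group in Npas4 (11.5 CPM, next 6.04 CPM). On Day 5, an FGF1-treated mouse stood below its group in Ier2 (0.868 CPM, next 1.67 CPM).

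The FGF1 effect differed between days by the test of the difference for 7 pairs of member and days. From Day 1 to Day 5 the change in log2 FC was -3.71 for Egr3, -2.58 for Junb, -2.46 for Egr1, -2.09 for Ier2, -1.89 for Arc and -1.70 for Fos. From Day 5 to Day 42 it was 2.86 for Egr3, which rests on FGF1 replicate 11.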

How the results depend on the processing

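On Day 1 the 6 members passed as higher under every alternative that tested them. With at least 10 counts required in every library Junb and Ier2 were not tested and 4 of 6 passed. Of 786 values of single members, 762 kept direction and call. The 18 that changed sign passed in neither fit. With the GC-rich level as a covariate (added after the data were seen), log2 FC on Day 5 were 0.02 for Junb against non-diabetic vehicle, and 0.01 for Junb and 0.02 for Arc against diabetic vehicle. In that fit Ier2 was at 0.11 on Day 42, the difference between Days 5 and 1 was 0.15 for Nr4a1, and 0.66 for Npas4, which then passed. Npas4 was at 0.03 between the vehicle groups under quantile normalization. With sample quality weights Day 42 gave -0.12 for Fos, 0.09 for Npas4 and 0.18 for Ier2.

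Leaving out each mouse of Day 42 in turn, 0 to 1 members passed on Day 42 and 0 to 1 in the difference between Days 42 and 5, where both limma voom fits also called 0. Ranges on Day 42 were -0.19 to 0.23 for Fos, -0.74 to 0.20 for Junb, -0.09 to 0.78 for Nr4a1, -0.26 to 0.19 for Npas4 and -0.29 to 0.29 for Ier2, and the difference for Junb ran from -0.66 to 0.28. The cause of these changes was not tested. No paired analysis was possible because the replicate numbers are unique over the series. FGF1 replicate 17 of Day 1, with 1243280 counts, limits Junb and Ier2.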
